A study of Mus musculus with 4 samples.

Results

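The genes of oxidative phosphorylation were followed across the cell classes of the postnatal mouse tibia. The set was taken by symbol: all genes named Nduf, Sdha to Sdhd, Uqcr, Cox4 to Cox8 or Atp5, and the mitochondrially encoded mt-Nd, mt-Co, mt-Cytb and mt-Atp genes. It held 106 of the 31053 genes listed, of which 93 lie in the nuclear genome and 13 in the mitochondrial genome, and 105 had at least 1 unique molecular identifier (UMI, a tag that marks 1 captured RNA molecule). Grouped by symbol, the nuclear genes were 38 named for complex I, 8 complex I assembly factors, 4 of complex II, 8 of complex III, 18 of complex IV and 17 of complex V. The 38 include Ndufa4, now placed with complex IV, and its relative Ndufa4l2. The rule reads symbols and no measured value, but the set was proposed with earlier results of these data known.

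The cells came from the proximal and distal tibia of 1 male mouse at postnatal day 6 (P6), with the genotype Col10a1Cre;Rosa26-Tdtomato;Irx3 +/Δ;Irx5 +/-, the Irx3/5 heterozygous control of the study. Col10a1Cre acts in hypertrophic chondrocytes (HCs), so the tdTomato reporter marks HCs and the cells derived from them, and the transcription factor genes Irx3 and Irx5 each carried an altered allele. The study writes the Irx3 deletion as made in HCs, so HC-like and HC-derived cells may differ from the others in Irx3 dose, and in the comparisons of those cells the cell state and the allele cannot be told apart. The 4 sequencing entries of the sample were counted together as 1 droplet library, which makes it a single sample with no replicate. No test between classes was therefore made, no difference below has a replicate check, and the intervals given (exact Poisson for levels, Clopper-Pearson for shares, 95%) cover counting error only.

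Oxidative phosphorylation takes place in the inner mitochondrial membrane. Complexes I and II pass electrons from NADH and succinate to ubiquinone, complex III passes them to cytochrome c, complex IV hands them to oxygen, and complex V uses the proton gradient built on the way to make ATP. Complexes I, III, IV and V each join subunits from both genomes, whereas complex II is wholly nuclear. Growth plate chondrocytes live in avascular cartilage and are known for glycolysis, osteoclasts for abundant mitochondria, and red cells lose their mitochondria as they mature.

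The library held 14181 barcodes and 158281984 UMIs, with a median of 8235 UMIs per barcode. Barcodes with fewer than 1600 genes, over 10% of mitochondrial or over 50% of ribosomal protein UMIs were removed, which left 8256 cells with a median of 13957.5 UMIs. The clusters were named from marker genes, each name with the ending -like, and 20 classes of at least 50 cells (7619 cells in all) were compared; 607 cells in 6 clusters stayed unnamed. Levels are given as CPM, the UMIs of a gene per 1000000 UMIs of the class. Some markers were highest in the class they name, as for Col10a1 at 11303 CPM in HC-like, Acp5 at 3333 CPM in osteoclast-like, Rgs5 at 10936 CPM in pericyte or smooth muscle-like and Siglech at 397 CPM in plasmacytoid dendritic-like cells. Others on the same lists were not. HC-like cells ranked 3 for Mmp13 (1223 CPM) and Scin (70.3 CPM) and 7 for Runx3 (42.8 CPM). Osteoclast-like cells ranked 6 for Itgb3 (15.0 CPM). Immature osteoblast-like cells ranked 2 for Sp7, Mmp14 and Mmp13 and 3 for Pdgfrb and Col1a1. One of the 20, with 452 cells, carried monocyte markers (Ly6c2 at 1131 CPM) but had none of them among its 10 leading genes, while Il1b, which stood on the late neutrophil list, led it. It is called the Il1b-led cluster here and given no cell type. Genes of the set were kept out of the variable genes used for clustering, as were Pth1r and the genes named Mmp. The limit on mitochondrial UMIs does use the 13 mitochondrially encoded genes, and it removed 449 of 8705 barcodes.

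Promoter sequences were examined because most nuclear genes of the set moved together over the classes, as described further on. Of the 92 nuclear symbols, 74 had an entry in the RefSeq promoter table (GRCm38.p6). The 250 bases before the start were searched on both strands for GCATGCG, the core of the site of nuclear respiratory factor 1 (NRF1), and for CCGGAAG, the core of an ETS factor site such as that of GABP. GCATGCG was found before 10 of 74 nuclear members (13.5%), against 926 of 27025 genes in the table (3.43%). CCGGAAG was found before 14 of 74 (18.9%), against 2115 of 27025 (7.83%). The 27025 genes were taken whether or not they are expressed in these cells. A comparison with expressed genes alone was not made, so the shares do not show that the motifs are particular to the set. The 4 genes that moved most closely with the rest and whose window lay outside annotated exons, Atp5g3, Cox7b, Uqcr10 and Ndufc2, held 0 matches to either motif. The 2 sequences printed were chosen after that was seen, because they hold a match in such a window, and they are no evidence that a motif goes with the common movement. Of the 21 nuclear members with either motif, only these 2 passed all limits for printing, among them a window outside annotated exons. The shares of 13.5% and 18.9% were counted without that limit. The printed sequences lie before Ndufb6, an accessory subunit of complex I (chr4:40279422-40279671, minus strand), and Ndufaf4, a complex I assembly factor (chr4:24897833-24898082, plus strand). They read 5′ to 3′ along the gene's strand with the matched bases in capitals.
Ndufb6: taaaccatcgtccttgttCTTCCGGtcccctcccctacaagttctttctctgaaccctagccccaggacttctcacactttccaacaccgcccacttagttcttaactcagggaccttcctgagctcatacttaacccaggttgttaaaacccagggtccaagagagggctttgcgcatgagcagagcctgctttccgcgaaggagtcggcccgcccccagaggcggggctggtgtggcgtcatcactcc
Ndufaf4: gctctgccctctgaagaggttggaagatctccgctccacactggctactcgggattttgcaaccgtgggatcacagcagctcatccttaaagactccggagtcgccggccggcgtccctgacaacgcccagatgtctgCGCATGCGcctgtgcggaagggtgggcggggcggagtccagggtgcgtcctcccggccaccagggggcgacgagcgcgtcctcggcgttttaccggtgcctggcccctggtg
The Ndufb6 match is to CCGGAAG, read on the opposite strand, and its first printed base lies 232 bases before the start. The Ndufaf4 match is to GCATGCG on both strands, which overlap, with first bases 112 and 111 before the start. A match describes letters and is not a shown binding site.

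The summed nuclear genes of the set were highest in osteoclast-like cells and lowest in neutrophil myelocyte-like cells. They stood at 39359.9 CPM (39162.2 to 39558.3) in the 153 osteoclast-like cells, at 29437.8 CPM in the 187 early erythroid-like cells and at 26219.0 CPM in the 392 promyelocyte-like cells. HC-like cells followed at 25031.5 CPM. The other 16 classes ran from 23877.2 CPM in immature osteoblast-like down to 17147.7 CPM in endothelial-like and 12705.9 CPM (12620.0 to 12792.3) in the 545 myelocyte-like cells, so that the highest and lowest class lay 3.1-fold apart. Neighbours in the order were close, and the intervals of immature osteoblast-like (23745.7 to 24009.3) and pericyte or smooth muscle-like (23398.1 to 23989.1) overlapped. Between single cells, the nuclear share of UMIs had quartiles of 3.09% and 4.54% in osteoclast-like and of 2.59% and 3.25% in early erythroid-like cells, ranges that overlap, and of 1.09% and 1.35% in myelocyte-like cells, which overlap neither. The lowest class was endothelial-like in place of myelocyte-like under median-of-ratios scaling (2.28-fold range) and with totals that left out haemoglobin and the 50 highest genes (2.30-fold). At 1000 genes per cell it was a late neutrophil-like class. At a 5% limit on mitochondrial UMIs, with no osteoclast-like class, macrophage-like cells led.

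The summed mitochondrially encoded genes ordered the classes differently. They were highest in immature osteoblast-like (58719.7 CPM), osteoclast-like (58061.0 CPM), pericyte or smooth muscle-like (57354.5 CPM) and small pre-B-like cells (56208.7 CPM). They were lowest in myelocyte-like (27014.7 CPM), late erythroid-like (32785.8 CPM), pre-HC-like (37182.9 CPM) and immature chondrocyte-like cells (38160.3 CPM), a 2.17-fold range. Of the 190 pairs of classes, 127 (66.8%) fell in the same order by both sums. The mitochondrially encoded sum was 1.48 times the nuclear one in osteoclast-like and 3.25 times in endothelial-like cells, the ends of that ratio. The leading class changed with several settings. The limit on mitochondrial UMIs acts on this sum directly, and small pre-B-like led at a limit of 5%, under which no osteoclast-like class was formed, while osteoclast-like led at 20%, with no limit and at Leiden resolution 0.6. Small pre-B-like also led at 1000 genes per cell, pericyte or smooth muscle-like with doublets left out and mature osteoblast-like with median-of-ratios scaling.

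**Figure D1:**
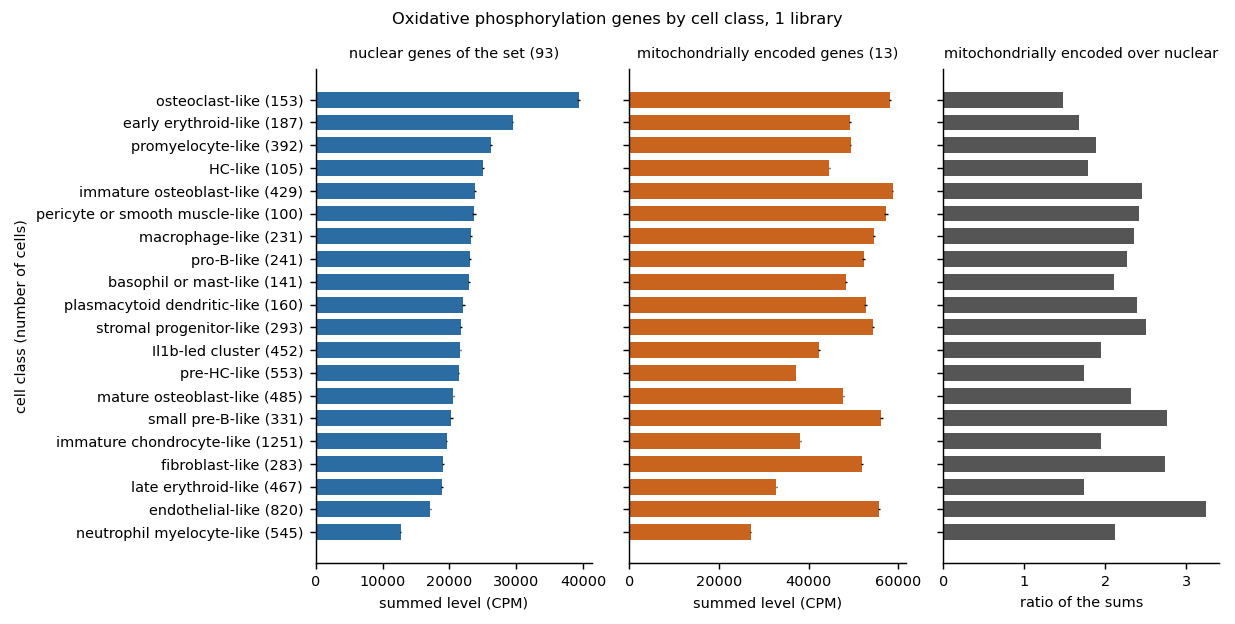
Summed level in CPM of the 93 nuclear genes (left) and the 13 mitochondrially encoded genes (middle), and the ratio of the sums (right), for 20 cell classes ordered by the nuclear sum, with the number of cells in parentheses. Bars are pooled UMIs of 1 library and lines are exact Poisson intervals of 95%; the nuclear bar of osteoclast-like cells (39359.9 CPM) stands above all others, while the mitochondrially encoded bars of 4 classes are close to the highest.

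Grouped by symbol, the complexes made up similar parts of the nuclear sum in all 20 classes. Genes named for complex I took 27.9% to 33.3% of it, complex II 1.25% to 2.38%, complex III 9.11% to 12.5%, complex IV 24.5% to 28.1% and complex V 28.1% to 33.2%. Ndufa4 and Ndufa4l2 are counted here with complex I. In immature chondrocyte-like cells, at the 33.3% end, Ndufa4l2 alone held 968 of the 6526 CPM of complex I. The parts with these genes moved to complex IV were not computed. In relative terms complex II varied most among the complexes, with its summed level 4.81-fold apart between the highest and lowest class, against 2.82-fold for complex I as grouped here. Its 4 genes encode succinate dehydrogenase, the enzyme shared with the tricarboxylic acid (TCA) cycle, and each was highest in osteoclast-like and lowest in myelocyte-like cells. Sdha, the flavoprotein subunit, went from 49.8 to 224 CPM, Sdhb, the iron-sulphur subunit, from 60 to 288 CPM, and the membrane anchors Sdhc and Sdhd from 24.0 to 163 and from 60.6 to 260.5 CPM.

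Gene by gene, 62 of the 87 nuclear genes with at least 10 CPM in a class (71.3%) had their highest level in osteoclast-like cells, where 5.17% of all 12120 such genes did. Early erythroid-like cells were highest for 6 (6.90%, against 7.47% of all genes). They were second for 34 of 87, but second places were not counted over all genes, so that count is a description only. HC-like cells were highest for 7 (8.05%), close to their 8.10% of all genes, among them Cox6a1 (566 CPM), a complex IV subunit, and Atp5j (556 CPM), a subunit of the complex V stalk. Myelocyte-like cells were lowest for 53 of 87, where 15.3% of all genes were lowest there. At a 5% limit on mitochondrial UMIs, which left no osteoclast-like class, HC-like cells led with 23 of 86, and the share of all genes was not counted there. Atp5h, another stalk subunit, was the 1 gene highest in late erythroid-like cells (887 CPM). Uqcrh, the hinge protein of complex III, was led by osteoclast-like cells (763.5 CPM) with pericyte or smooth muscle-like cells next (753 CPM).

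Levels of the nuclear genes moved together over the 20 classes. Over genes with at least 50 CPM in a class, the highest and lowest class lay a median of 1.96 apart on the log2 scale for 82 nuclear genes of the set, against 3.91 for 6946 genes. Each gene's log2 level was correlated with the log2 of the summed CPM of the other nuclear genes, in which abundant genes weigh most. This correlation had a median of 0.74 over the 20 classes, which share 1 library and differ in depth. It reached 0.8 for 28 of 82 (34.1%) against 1.38% of all genes, which were set against the full nuclear sum. It was 0.94 for Atp5g3, which encodes the c subunit of complex V, 0.94 for Cox6b1 and 0.93 for Uqcr10, small subunits of complexes IV and III. The lowest values belonged to Ndufa4l2 (−0.18), Cox6a2 (−0.11), Cox4i2 (−0.07) and Cox6b2 (−0.07), each of which has a more widely expressed relative. For 12 mitochondrially encoded genes the median correlation with the nuclear genes was 0.53.

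Ndufa4l2 and Cox4i2 were the genes of the set with the sharpest cartilage and pericyte pattern. Ndufa4l2 (chr10:127514967-127517154, GRCm38, plus strand) encodes a relative of Ndufa4, a subunit first assigned to complex I and now placed with complex IV, and is known as a target of the hypoxia factor HIF1. Cox4i2 (chr2:152754173-152765037, plus strand) encodes the isoform of subunit 4 that is known to alter how complex IV handles oxygen. Ndufa4l2 stood at 968 CPM (956 to 980) in immature chondrocyte-like, 946 CPM (931 to 962) in pre-HC-like and 854 CPM (799 to 912) in pericyte or smooth muscle-like cells. It was at 319 CPM in fibroblast-like, 245 CPM in HC-like, 66.5 CPM in mature osteoblast-like, 63.2 CPM in stromal progenitor-like, 28.4 CPM in immature osteoblast-like and 5.18 CPM in osteoclast-like cells. These first 3 classes thus stood above the rest as pooled, and the intervals of immature chondrocyte-like and pre-HC-like cells overlapped. The fibroblast-like value joined 162 cells led by Mfap5 and Tnmd at 498 CPM and 121 cells led by Aspn at 37.6 CPM.

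Cox4i2 followed the same order of classes in large part. It stood at 373 CPM in pre-HC-like, 329 CPM in immature chondrocyte-like and 290 CPM in pericyte or smooth muscle-like cells, and at 80.6 CPM in fibroblast-like, 80.3 CPM in HC-like and 62.8 CPM in immature osteoblast-like cells. Over the 20 classes the log2 levels of Ndufa4l2 and Cox4i2 correlated at 0.95, and those of Ndufa4l2 and Ndufa4 at −0.66. Ndufa4 itself was highest in osteoclast-like (1031.5 CPM) and lowest in pericyte or smooth muscle-like cells (106 CPM). As a share of the UMIs of each pair, Ndufa4l2 made up 88.9% in pericyte or smooth muscle-like, 79.1% in immature chondrocyte-like, 77.8% in pre-HC-like, 31.5% in HC-like and 0.50% in osteoclast-like cells. Cox4i2 made up 34.3% of its pair with Cox4i1 in pre-HC-like, 32.0% in immature chondrocyte-like and 20.5% in pericyte or smooth muscle-like cells.

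**Figure D2:**
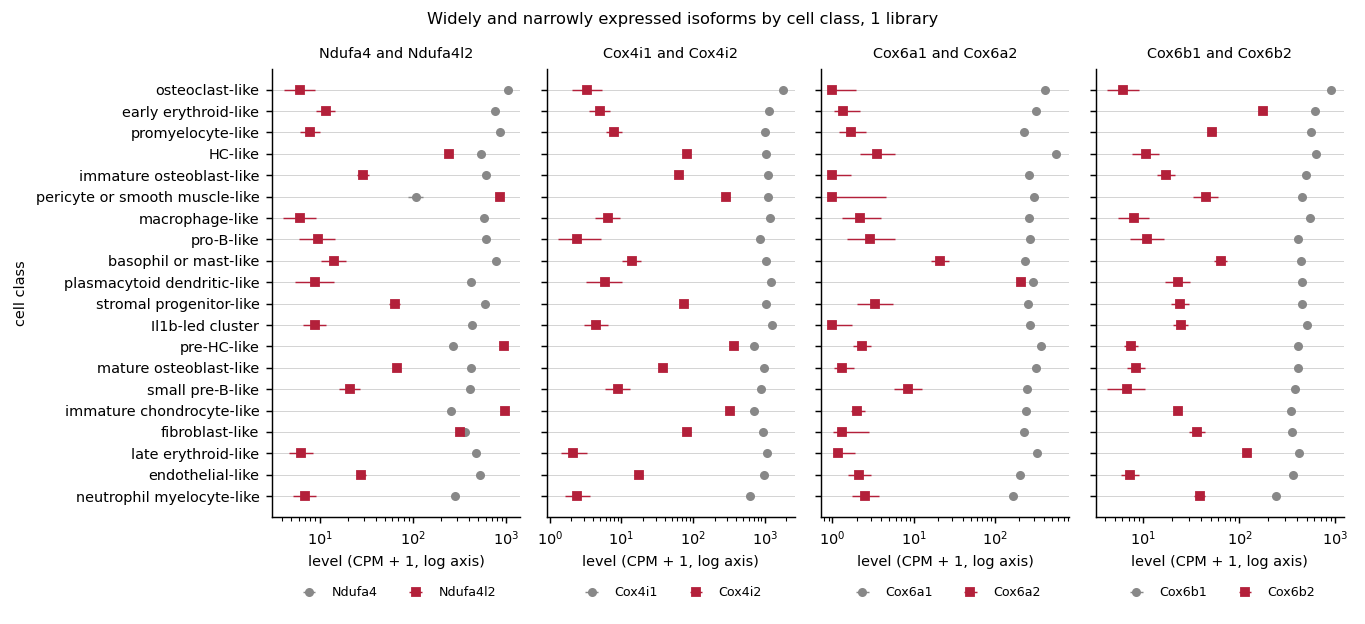
Level in CPM + 1 (log axis) of 4 pairs of related genes in 20 cell classes, in the order of the nuclear sum: Ndufa4 and Ndufa4l2, Cox4i1 and Cox4i2, Cox6a1 and Cox6a2, Cox6b1 and Cox6b2. Points are pooled UMIs of 1 library with exact Poisson intervals of 95%; the grey gene of each pair was counted in all 20 classes, with Ndufa4 from 106 to 1031.5 CPM, and the red relative stands high in a few classes, such as Cox6a2 in plasmacytoid dendritic-like cells at 208 CPM.

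The share of cells with a UMI was set side by side at 1 depth, by drawing 5000 UMIs from each cell. Ndufa4l2 was found in 94.5% of 91 pericyte or smooth muscle-like cells (9 shallower cells left out; 98% before thinning; median depth 9363 UMIs), in 85.1% of 552 pre-HC-like cells (1 left out; 94.0%; 28425 UMIs) and in 79.1% of 1247 immature chondrocyte-like cells (4 left out; 85.0%; 18965 UMIs). In osteoclast-like cells, which carried the least, it was found in 0.658% of 152 cells (1 left out; 8.5% before thinning; 24359 UMIs). Cox4i2 was found in 67.0%, 64.9% and 61.0% of the same 3 classes and in 0 of 152 osteoclast-like cells (5.23% before thinning). By the limit of 3 counts, that 0 leaves room for up to 1.97% of cells with a UMI at this depth, and says nothing of cells that express the gene below it.

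Col2a1, the main collagen gene of cartilage, was counted in every class, from 344 CPM in osteoclast-like cells upward, and its UMIs were therefore set beside those of Ndufa4l2 and Cox4i2. Ndufa4l2 was counted at 21.2 UMIs per 1000 Col2a1 UMIs in immature chondrocyte-like, 18.1 in pre-HC-like and 25.8 in HC-like cells, and at 28 in mature osteoblast-like, 20.3 in small pre-B-like and 16.9 in endothelial-like cells. The intervals of small pre-B-like (15.2 to 26.5) and endothelial-like cells (15.0 to 19.1) overlapped that of immature chondrocyte-like (20.9 to 21.4) or pre-HC-like cells (17.9 to 18.4). Those of HC-like (24.1 to 27.6) and mature osteoblast-like cells (25.9 to 30.2) lay above both. In pericyte or smooth muscle-like cells Ndufa4l2 was at 260 per 1000, in stromal progenitor-like 112, in fibroblast-like 103 and in immature osteoblast-like 57.5, all further above. Basophil or mast-like (23.6, 16.6 to 32.7) and early erythroid-like cells (24.3, 18.7 to 31.1) had intervals that overlapped that of immature chondrocyte-like cells. Osteoclast-like (15.0, 9.19 to 23.2), promyelocyte-like (15.7, 11.7 to 20.7), pro-B-like (12.9, 7.66 to 20.4) and macrophage-like cells (12.1, 7.16 to 19.1) had intervals that overlapped that of pre-HC-like cells. The classes with intervals below both cartilage values were late erythroid-like at 7.98 (5.53 to 11.2), plasmacytoid dendritic-like at 8.27 (4.63 to 13.6), the Il1b-led cluster at 9.65 (6.86 to 13.2) and myelocyte-like at 12.3 (8.72 to 16.8). Cox4i2 was at 7.20 and 7.16 per 1000 in immature chondrocyte-like and pre-HC-like cells. Intervals lay above both in HC-like (8.45), mature osteoblast-like (15.8, 14.2 to 17.5), stromal progenitor-like (131) and immature osteoblast-like cells (127). They also did so in pericyte or smooth muscle-like (88.4), fibroblast-like (25.97), basophil or mast-like (22.98), promyelocyte-like (15.7), macrophage-like (12.8) and endothelial-like cells (10.3). Early erythroid-like (9.13), small pre-B-like (8.03), osteoclast-like (6.77) and plasmacytoid dendritic-like cells (4.96) had intervals that overlapped both. Those of the Il1b-led cluster (4.21), myelocyte-like (2.83), pro-B-like (2.16) and late erythroid-like cells (1.64) lay below both. The 2 unnamed clusters led by Retnlg and Tmcc2, in which 86 of 103 and 38 of 76 cells were marked as doublets, held Ndufa4l2 at 18.7 and 17.4 per 1000, also near the cartilage ratio.

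Cox6a2 and Cox6b2 had different homes. Cox6a2 (chr7:128205435-128206387, minus strand), known as the heart and skeletal muscle isoform of subunit 6a, stood at 208 CPM (188 to 230) in the 160 plasmacytoid dendritic-like cells, at 20.4 CPM in basophil or mast-like cells and at 7.62 CPM or less in the other 18 classes. It made up 41.9% of its pair with Cox6a1 in plasmacytoid dendritic-like cells. After thinning to 5000 UMIs it was found in 33.3% of 150 plasmacytoid dendritic-like cells (10 left out; 42.5% before thinning; median depth 10799.5 UMIs) and in 0 of 441 cells of the Il1b-led cluster (11 left out; 0 before thinning; 8883.5 UMIs), which by the same limit leaves room for up to 0.680% of cells with a UMI. Cox6b2 (chr7:4751792-4753094, minus strand), known as the testis isoform of subunit 6b, was at 174 CPM in early erythroid-like and 120 CPM in late erythroid-like cells, 22.0% and 22.2% of its pair with Cox6b1. Next came basophil or mast-like cells at 62.6 CPM and promyelocyte-like cells at 51.2 CPM. After thinning it was found in 49.5% of 184 early erythroid-like cells (3 left out; 86.6% before thinning; 31309 UMIs) against 2.63% of 152 osteoclast-like cells.

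The 3 genes Atp5g1, Atp5g2 and Atp5g3 encode the same mature c subunit of complex V behind different import sequences, and their shares differed between classes. Atp5g1 made up 54.5% of their UMIs in HC-like and 17.7% in small pre-B-like cells. Atp5g2 made up 58.6% in small pre-B-like, 33.4% in early erythroid-like and 13.9% in late erythroid-like cells, where Atp5g3 made up 43.4%. Apart from Ndufa4l2, Cox4i2, Cox6a2 and Cox6b2, the isoforms known for a narrow tissue range were scarce. Cox7a1 reached 5.18 CPM at most, and Cox8b, Cox8c and Cox7b2 had 7, 4 and 1 UMIs in all. Where near-identical gene copies exist, the counting may have split or dropped their reads, so isoform shares are read between classes and not as which gene is higher. Atp5o was listed under a pair of identifiers, of which 1 had no UMI.

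Hypertrophy was followed over 3 classes of the growth plate, immature chondrocyte-like, pre-HC-like and HC-like. From pre-HC-like to HC-like cells, Cox4i2 was lower by 2.20 on the log2 scale of CPM + 1 (80.3 against 373 CPM) and Ndufa4l2 by 1.95 (245 against 946 CPM), while Ndufv1, which encodes the subunit with the NADH-binding site of complex I, was 1.13 higher (89.3 against 40.3 CPM). These were the 3 of 82 nuclear genes at least 2-fold apart, among genes with at least 10 CPM in either class and 100 UMIs in both together. By the same rule 20.9% of all 7801 genes compared were at least 2-fold higher and 5.94% lower in HC-like cells. The median of 95 genes of the set was 0.28 and that of all genes 0.46. The summed nuclear level was 0.23 higher in HC-like cells and the summed mitochondrially encoded level 0.26 higher, values that became −0.26 and −0.23 under median-of-ratios scaling. Col2a1 was at 9496 CPM in HC-like and 52148 CPM in pre-HC-like cells, and its part in the lower Ndufa4l2 and Cox4i2 was not tested. The pre-HC-like class joined 231 cells with Cox4i2 at 652 CPM and 322 cells with Cox4i2 at 207 CPM. Ndufa4l2 was at 1135 and 833 CPM in them. Their mitochondrially encoded sums were 27504 and 42975.8 CPM, beside 44646.4 CPM in HC-like cells, so the 0.26 depends on the joining of unlike clusters. Their nuclear sums were 20538.5 and 21912.9 CPM, beside 25031.5 CPM. Gene by gene, HC-like cells were not compared with either cluster alone.

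Between pre-HC-like and immature chondrocyte-like cells, 1 of 83 nuclear genes was at least 2-fold apart, Cox6b2 at −1.59 (6.50 against 21.7 CPM). Of all 7164 genes, 2.65% were at least 2-fold higher and 5.56% lower. Medians were 0.08 for the set and −0.04 for all genes. The classes were less alike within themselves, since each held clusters that differed in the genes of the set. Among immature chondrocyte-like cells, the 824 cells led by Gdf10 carried Ndufa4l2 at 1168 CPM and Cox4i2 at 402 CPM, against 429 and 116 CPM in the 304 cells led by F3 and 370 and 194 CPM in the 123 cells led by Penk. Among pre-HC-like cells, the 231 led by 2610528A11Rik carried them at 1135 and 652 CPM, and the 322 led by Ppa1 and Ihh at 833 and 207 CPM. The 2610528A11Rik-led cluster had no marker of the pre-HC list among its 10 leading genes, so its name is less certain. Ndufa4l2 was itself among the leading genes of the Gdf10-led cluster, so its level there is a description. Leaving that cluster out must raise the ratio of Ndufa4l2 and gave 1.18 for pre-HC-like over immature chondrocyte-like cells, with 3 genes of the set at least 2-fold apart, while leaving out the Penk-led and F3-led clusters gave −0.30 and 1 gene. Both counts stand without the share of all genes in the same cells.

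**Figure D3:**
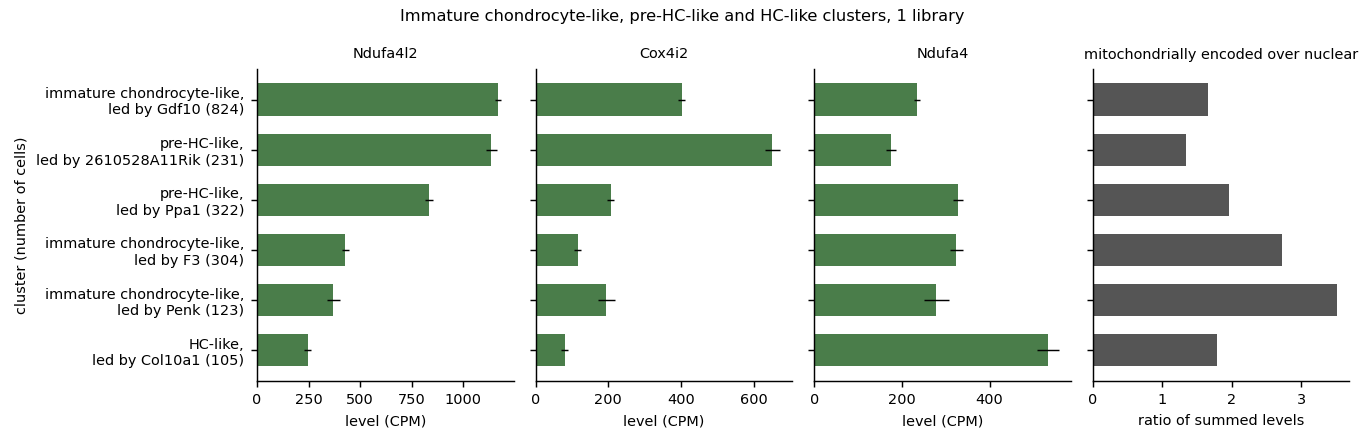
Levels in CPM of Ndufa4l2, Cox4i2 and Ndufa4, and the ratio of the mitochondrially encoded to the nuclear sum, in the 6 clusters named immature chondrocyte-like, pre-HC-like or HC-like, with the number of cells in parentheses. Bars are pooled UMIs of 1 library and lines are exact Poisson intervals of 95%; the HC-like cluster has the lowest Ndufa4l2 (245 CPM) and the highest Ndufa4 (533 CPM) of the 6.

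The ratio of the 2 genomes also differed along these clusters. The mitochondrially encoded sum was 1.34 times the nuclear sum in the pre-HC-like cluster led by 2610528A11Rik, 1.67 times in the Gdf10-led, 1.96 times in the Ppa1-led, 2.73 times in the F3-led and 3.52 times in the Penk-led cluster. Ndufa4 was at 175 CPM in the first and 533 CPM in HC-like cells. Genes of glycolysis and lactate transport, taken as a list of 21 outside the set, were highest in pre-HC-like cells for 10 of 21, where 3.51% of all genes were, and 3 of 21 were at least 2-fold lower in HC-like than in pre-HC-like cells (5.94% of all genes), among them Ldha, the lactate dehydrogenase subunit, at −1.32. In the same comparison 3 of 12 electron carriers and transporters were at least 2-fold higher, near the 20.9% of all genes, with Cycs, cytochrome c, at 1.46 and Ucp2, a mitochondrial carrier, at 2.70.

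Cartilage and bone were compared by summing the 3 chondrogenic classes (1909 cells) and the 3 osteogenic ones (1207 cells: stromal progenitor-like, immature and mature osteoblast-like). Ndufa4l2 was lower in osteogenic cells by 4.01 on the log2 scale (55.2 against 903 CPM) and Cox4i2 by 2.64 (51.2 against 326 CPM). Ndufv1 was 1.18 higher (98.7 against 43.0 CPM) and Uqcrc1, a core subunit of complex III, 1.11 higher (134 against 61.6 CPM). The other 79 of 83 nuclear genes were less than 2-fold apart, where 19.3% of all 8377 genes were at least 2-fold higher and 8.99% lower. The nuclear sums were close (21734.7 against 20672.4 CPM), and the mitochondrially encoded sum was 0.44 higher in osteogenic cells (52013.1 against 38318.4 CPM), with 0.22 to 0.50 over all alternatives. By contrast, 15 of 21 glycolysis genes were at least 2-fold lower in osteogenic cells and none higher, with a median of −1.75. They included Aldoc, an aldolase, at −4.28 and Slc2a1, the glucose transporter GLUT1, at −3.17.

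From immature to mature osteoblast-like cells, 2 of 84 nuclear genes were at least 2-fold apart. Ndufa4l2 was 1.20 higher (66.5 against 28.4 CPM), a value beside which Col2a1 was also higher (2378 against 493 CPM), and whose part in it was not tested. With a limit of 5% on mitochondrial UMIs it turned to −0.53. Cox6b2 was at −1.04 (7.39 against 16.3 CPM). Of all 8346 genes, 5.1% were at least 2-fold higher and 13.6% lower. The median of the set was −0.24 and of all genes −0.44. HC-derived osteogenic cells, those with more than 14 UMIs of the reporter's WPRE sequence, showed no gene of the set 2-fold apart from the others (294 against 913 cells; 0 of 97 genes). The cut is a raw count, and the median depth was 15858 UMIs in HC-derived and 12796 in the other cells. Shallow HC-derived cells may thus stand among the others, and the effect of this was not tested. The background was low, at 0.655% higher and 1.3% lower of 8093 genes, and the genes of the set lay between −0.38 and 0.39.

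Osteoclast-like cells carried more of every nuclear gene compared than macrophage-like cells, which share their myeloid origin. All 80 nuclear genes were above 0, from 0.25 to 1.42, and 16 were at least 2-fold higher, where 5.08% of all 6728 genes were at least 2-fold higher and 11.9% lower. Ndufaf4, the assembly factor, led at 1.42 (49.2 against 17.7 CPM). Uqcr10 and Uqcr11, small subunits of complex III, followed at 1.28 (770.2 against 317 CPM) and 1.26 (735.5 against 305.5 CPM). Ndufb6 was at 1.20 (247 against 107 CPM) and Uqcrfs1, the Rieske iron-sulphur protein of complex III, at 1.17 (348 against 154.5 CPM). The median of the set was 0.72 and that of all genes 0.04. The nuclear sum was 0.76 higher and the mitochondrially encoded sum 0.09 higher, so that the difference in the nuclear genes was the wider one. The count past 2-fold was 1 with a 20% limit on mitochondrial UMIs and 37 against the Il1b-led cluster in place of macrophage-like cells. These counts rest on other cells or another partner. The 5.08% and 11.9% above do not apply to them, and they are not read as results about the set.

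Outside the set, most genes of the other lists were less than 2-fold apart between these classes, and the shares are to be read against the 5.08% of all genes that were higher. In the TCA cycle list, 6 of 16 genes were at least 2-fold higher and none lower, with Idh3a, an isocitrate dehydrogenase subunit, at 1.75. Among electron carriers and transporters it was 2 of 12 (Cycs at 1.39 and Slc25a4, the ADP/ATP carrier, at 1.30), and among assembly factors outside the rule 3 of 19. In the list of regulators 1 of 11 was at least 2-fold higher, Ppargc1b, a coactivator of mitochondrial genes, at 3.48 (42.5 against 2.90 CPM). Of glycolysis genes, 3 of 19 were higher and 2 lower. The 34 osteoclast-like cells led by Ctsk, the collagen-degrading cathepsin K, had a nuclear sum of 52405.7 CPM, against 34615.5 and 35944.4 CPM in the other osteoclast-like clusters.

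In myelocyte-like cells, 45 of 83 nuclear and 4 of 12 mitochondrially encoded genes were at least 2-fold lower than in promyelocyte-like cells and none was higher, where 23.5% of all 7098 genes were lower and 8.79% higher. Assembly factors led the list, with Ndufaf2 at −2.79 and Ndufaf4 at −2.69, each on low levels (4.37 against 36.5 CPM and 3.19 against 26.0 CPM). Atp5g1 fell by 2.20 (148 against 685 CPM) and Uqcr11 by 2.06 (77.3 against 327 CPM). Of the mitochondrially encoded genes, mt-Nd1 was at −1.36, mt-Cytb at −1.23, mt-Nd2 at −1.22 and mt-Nd4 at −1.10. The median of the set was −1.04 and that of all genes −0.27. With totals that left out haemoglobin and the 50 highest genes, the count past 2-fold was 12 in place of 49, and the medians were −0.50 and 0.26. The granule genes Camp (51214 CPM) and Ngp (33848 CPM) were high in myelocyte-like cells, and their part in the difference was not tested on its own.

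The other lists are to be read against the 23.5% of all genes that were lower and the 8.79% that were higher in the same comparison. They were not counted again with the reduced totals. In the TCA cycle list 8 of 16 genes were at least 2-fold lower, with Suclg2, a succinate-CoA ligase subunit, at −2.31. Of the carriers 5 of 12 were lower (Slc25a4 at −3.32), of the assembly factors outside the rule 12 of 22 (Sco2, a copper chaperone of complex IV, at −2.84), and of the regulators 5 of 11 with 1 higher. Glycolysis genes were lower for 5 of 19, near the 23.5% of all genes, and higher for 1.

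Late erythroid-like cells carried less of most genes than early erythroid-like cells on the CPM scale. The set had 26 of 83 nuclear and 6 of 13 mitochondrially encoded genes at least 2-fold lower and none higher, but 40.4% of all 6776 genes were lower and 7.69% higher. The medians were alike, −0.74 for the set and −0.75 for all genes. Haemoglobin made up 30.5% of UMIs in late and 2.54% in early erythroid-like cells, which lowers the CPM of all other genes, and without haemoglobin the nuclear sums were 27133.3 and 30205.3 CPM. Under median-of-ratios scaling the median of the set turned to 0.18 and that of all genes to 0.16, with 3 genes of the set at least 2-fold higher and 8 lower. The 40.4% and 7.69% belong to the CPM scale, and the shares of all genes under the other scaling are not given here. The genes farthest below the rest were Atp5g2 at −3.16 (81.5 against 738 CPM), Ndufb5, a complex I subunit, at −2.51 (57.2 against 330.5 CPM) and Cox5a, a complex IV subunit, at −2.27 (120 against 583 CPM). Outside the set, 7 of 16 TCA cycle genes, 7 of 12 carriers, 14 of 21 assembly factors, 5 of 10 regulators and 11 of 14 glycolysis genes were at least 2-fold lower on the CPM scale. These counts are to be read against the 40.4% of all genes that were lower, and were not counted again under the other scaling. Pf4, a platelet gene, was among the leading genes of the early erythroid-like cells.

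Between small pre-B-like and pro-B-like cells, no gene of the set was 2-fold apart (0 of 77 nuclear and 0 of 12 mitochondrially encoded), where 3.88% of all 5696 genes were at least 2-fold higher and 3.76% lower. The median was −0.15 for the set and −0.03 for all genes.

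The make-up of the mitochondrially encoded UMIs differed between classes. The mt-Co genes, which encode the core of complex IV, took 38.5% of them in pre-HC-like and 39.7% in immature chondrocyte-like cells but 56.1% in myelocyte-like cells. The mt-Nd genes, which encode the membrane core of complex I, took 26.1% and 25.2% in the same cartilage classes, 13.2% in myelocyte-like and 12.1% in late erythroid-like cells. The ratio of mt-Co to mt-Nd UMIs thus ran from 1.48 in pre-HC-like to 4.39 in late erythroid-like cells. By gene, mt-Co1 was lowest in pre-HC-like cells (2757.8 CPM) and highest in plasmacytoid dendritic-like cells (7142.9 CPM), while mt-Nd5 was highest in pre-HC-like (535 CPM) and immature chondrocyte-like cells (526 CPM). mt-Nd6, the only one of the 13 encoded on the light strand, was at 44.6 and 37.6 CPM in immature chondrocyte-like and pre-HC-like cells and at 8.96 CPM in myelocyte-like cells. mt-Atp8 and mt-Atp6, mt-Nd4l and mt-Nd4, and mt-Nd5 and mt-Nd6 overlap in the genome, and nuclear copies of mitochondrial DNA exist, so single levels of these genes are uncertain.

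**Figure D4:**
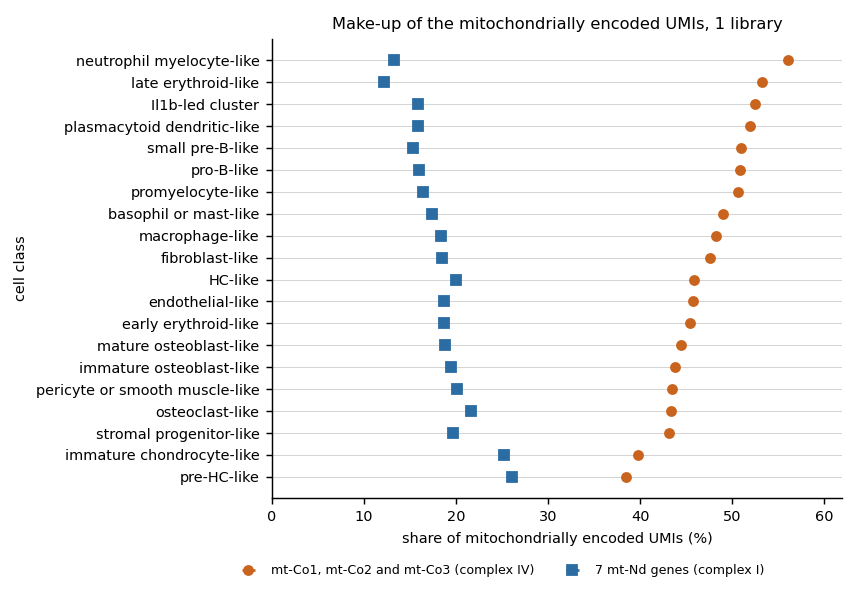
Share in percent of the mitochondrially encoded UMIs taken by the 3 mt-Co genes (orange circles) and the 7 mt-Nd genes (blue squares) in 20 cell classes of 1 library, with Clopper-Pearson intervals of 95%. Pre-HC-like and immature chondrocyte-like cells lie at the bottom with the lowest mt-Co shares (38.5% and 39.7%) and the highest mt-Nd shares (26.1% and 25.2%).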

How the data were processed

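Summed UMI counts were analysed from 1 droplet single-cell RNA library of P6 mouse tibia. The authors deposited the counts as a filtered matrix with gene names and barcodes, made with Cell Ranger 3.1.0 and, per the submitters' processing notes, the mm10 genome; Seurat 3 is also named there, and no annotation release was given in the sources used here. A matrix of 98 added sequences gave the WPRE counts. The P56 sample of the study was not analysed here, and 0 columns of per-sample values were left unused.

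Cells were filtered at 1600 genes, 10% mitochondrial and 50% ribosomal UMIs. The study's methods excluded the secondary ossification centre. Counts were scaled to 10000 per cell and clustered with scanpy 1.11.5 and igraph 0.11.9 (2000 variable genes without the set, Pth1r and the genes named Mmp, 30 components, 20 neighbours, Leiden resolution 1, 0.5 for the sub-clusters of the macrophage and osteoclast cluster, seed 1). Scrublet marked 588 barcodes (4.15%), which were kept. Classes were named from 27 marker lists, with limits set after the clusters were seen. Python 3.11.15, numpy 2.4.6, scipy 1.17.1, pandas 2.3.3, scikit-learn 1.9.0 and matplotlib 3.10.9 were used.

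Levels were summed UMIs per class as CPM, compared as log2 of CPM + 1. The genes of the set, the 5 other lists and the tests were chosen with earlier results of these data known. Named genes were the mitochondrially encoded ones, isoform families, up to 5 per direction past 2-fold in each comparison, those of largest and smallest range, the most counted gene of each complex, complex II, and the widest-ranging gene of each other list; further genes were added after their values were seen. All 106 genes matched GENCODE M21 (GRCm38). The choice of promoters to print was changed after results were seen. The counting was tested on simulated data. Alternatives changed the filters, scaling, clustering, pseudocount and members of the classes.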

Additional observations from a re-analysis of the deposited data

How the results depend on the processing

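In all, 24 alternatives were run. Of 171 counts compared, 128 stayed within 1.5 times the reported count and 43 moved, judged on raw counts whatever the number of genes or pairs compared. Single ratios were set beside their value under each alternative, which made 749 comparisons of far fewer ratios. Of those on ratios reported below 2-fold, 36 changed sign. On ratios reported past 2-fold there were 389 comparisons. A change of sign does not show whether such a ratio stayed past 2-fold, and 2 of the 389 changed sign. Both were Ndufa4l2 in mature over immature osteoblast-like cells, at −0.53 with at most 5% mitochondrial UMIs and −0.072 with at least 1000 genes per cell. In the rest of this paragraph a number is the count of genes of the set past 2-fold. These counts stand without the share of all genes under the same setting and are not read as results about the set. HC-like against pre-HC-like cells gave 3, and 7 at 5% mitochondrial UMIs and 5 at 2000 genes per cell, with doublets out, or at Leiden 1.5. Pre-HC-like against immature chondrocyte-like gave 1, and 0 at 50 CPM or a pseudocount of 10 CPM, and 3 without the Gdf10-led cluster. Mature against immature osteoblast-like gave 2, and 1 with no mitochondrial limit, at 1000 or 2000 genes per cell, with totals without haemoglobin and the 50 highest genes, at Leiden 0.6, with 3000 variable genes, with members allowed among the variable genes or at 50 CPM, and 0 at a pseudocount of 10 CPM. Osteoclast-like against macrophage-like gave 16, and 1 at 20% mitochondrial UMIs, 5 with no limit, 8 at 1000 genes per cell, 7 with median-of-ratios scaling, 8 with reduced totals, 10 with 3000 variable genes and 37 with the Il1b-led cluster as partner. Myelocyte-like against promyelocyte-like gave 49, and 31 at 5%, 15 with median-of-ratios and 12 with reduced totals. Late against early erythroid-like gave 32, and 55 at 1000 genes per cell, 11 with median-of-ratios and 13 with reduced totals. Small pre-B-like against pro-B-like gave 0, and 1 with no limit, at 1000 or 2000 genes per cell, at Leiden 0.6 or with members allowed, 2 at Leiden 1.5 or with 3000 variable genes, and 3 with a 1 UMI filter. HC-derived cells gave 0, and 1 within the immature osteoblast-like class. The leading class held 62 nuclear genes, and 23 at 5% (HC-like), 37 with median-of-ratios and 38 with osteoclast-like cells left out (early erythroid-like). Pairs of classes in the same order were 127 of 190, and 54 of 78 at 5% and 84 of 120 at Leiden 0.6. Fewer classes, and so fewer pairs, were formed under those settings, and these raw counts are not comparable. The cause of the other differences was not tested. The myelocyte comparison, the clusters left out, the Il1b-led partner and leaving out osteoclast-like cells were added after seeing the data. No late neutrophil-like class was formed under the reported settings, so that comparison was not run. No paired analysis was possible because all samples form 1 group. With 1 mouse, 1 library and classes of 100 to 1251 cells, differences between animals are not covered by any interval.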
